A study of Homo sapiens with 12 samples.

Results

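Immediate early response genes were followed in induced pluripotent stem cell-derived microglia-like cells (iMGLs) of WT and LACTB KO clones, LACTB being a filament-forming serine protease of the mitochondrial intermembrane space. The 10 genes FOS, FOSB, JUN, JUNB, ATF3, EGR1, EGR2, NR4A1, IER2 and DUSP1 were taken by gene name from a table of estimated counts with 62703 genes, and all 10 passed the expression filter. They were taken as a readout of activation or handling of the cells, and were chosen with earlier results of these data known. The iMGLs were made from the human iPSC line WTC11, which is an established line. Bulk RNA-seq was done on 12 libraries, 6 per genotype, from clones that were each differentiated 2 times: the WT clones are J, K and L, and those with the genotype LACTB KO are A, B and C. LACTB KO clones had been made by CRISPR/Cas9 cutting and end joining, and the columns of the WT clones carry the abbreviation the study uses for its scrambled controls. All 12 libraries were labelled as untreated, and the labels give differentiation 1 and differentiation 2 as the batch. Every culture, WT and LACTB KO, had been matured with IL-34, TGF-beta and M-CSF and then with CX3CL1 and CD200, so the comparisons hold for unstimulated cells in one medium. When CX3CL1 and CD200 were added the cells had been lifted with Accutase and replated, and the labels describe 1 handling for all 12 libraries. A library is called below by its clone and differentiation, K2 being clone K in differentiation 2.

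Immediate early genes are transcribed within minutes of a stimulus, without new protein synthesis, from transcription factors that are already present. ERK and p38 MAP kinases act on SRF with its ELK partners and on CREB at their promoters, and many of the transcripts are short-lived. The products are themselves mostly transcription factors (the AP-1 subunits, the EGR zinc finger proteins and the orphan nuclear receptor NR4A1) or feedback inhibitors such as DUSP1, a phosphatase that inactivates MAP kinases. In microglia they are known to be induced by cytokines and by ligands of pattern recognition receptors, and also by dissociation and handling.

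The promoters are shown for 5 of the genes that were ordered alike over the libraries and for JUN, which did not follow them. Not shown are IER2, and EGR2, ATF3 and NR4A1, in which no match to the sequence TGACG was found at the 1 RefSeq start searched. The windows run from 150 bases to 1 base before the RefSeq start site on GRCh38.p14, 5′ to 3′ on the strand of the gene, and capitals mark matches on either strand to the CArG box bound by SRF (by name), the cyclic AMP response element TGACGTCA, its core TGACG and the TATA box TATAAA. They lie at chr5:138465329-138465478 on the plus strand for EGR1, chr14:75278678-75278827 on the plus strand for FOS, chr19:45467846-45467995 on the plus strand for FOSB, chr19:12791336-12791485 on the plus strand for JUNB, chr5:172771196-172771345 on the minus strand for DUSP1 and chr1:58784048-58784197 on the minus strand for JUN.
EGR1: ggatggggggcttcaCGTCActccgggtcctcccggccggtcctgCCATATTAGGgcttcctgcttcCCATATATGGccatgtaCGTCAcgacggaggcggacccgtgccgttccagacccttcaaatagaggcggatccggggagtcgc
FOS: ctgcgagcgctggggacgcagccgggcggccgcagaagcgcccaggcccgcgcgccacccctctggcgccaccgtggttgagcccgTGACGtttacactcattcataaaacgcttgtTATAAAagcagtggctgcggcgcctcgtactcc
FOSB: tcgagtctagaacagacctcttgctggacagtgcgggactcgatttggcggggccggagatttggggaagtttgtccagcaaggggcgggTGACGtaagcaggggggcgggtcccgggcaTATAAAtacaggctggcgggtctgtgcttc
JUNB: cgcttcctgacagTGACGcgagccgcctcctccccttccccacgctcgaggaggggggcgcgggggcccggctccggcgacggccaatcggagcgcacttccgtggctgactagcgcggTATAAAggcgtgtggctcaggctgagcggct
DUSP1: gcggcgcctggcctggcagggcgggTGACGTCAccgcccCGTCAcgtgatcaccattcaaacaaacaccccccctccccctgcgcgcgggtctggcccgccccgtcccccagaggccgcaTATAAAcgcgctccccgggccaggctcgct
JUN: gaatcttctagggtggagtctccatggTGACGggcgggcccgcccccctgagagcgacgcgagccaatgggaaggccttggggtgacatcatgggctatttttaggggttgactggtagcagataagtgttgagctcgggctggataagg

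Motifs were counted in the window from 250 bases before to 50 bases after each start, on both strands, for all 10 genes and for 27305 RefSeq promoters of the same length. The core TGACG was found in 7 of the 10 (all but EGR2, ATF3 and NR4A1), against 25% of all promoters. The full element TGACGTCA, which holds that core on each strand, was found in DUSP1 alone, against 1.98%. EGR1 alone held CArG boxes, 2 of them, at positions -105 to -96 and -83 to -74 from the start, against 1.29% of promoters with at least 1. TATAAA was found in FOS, FOSB, JUNB and DUSP1, between positions -33 and -25, against 12% of promoters. The GC box GGGCGG was found in 7 of the 10 genes and in 44.6% of all promoters. No match was found for the AP-1 site TGACTCA, whose reverse complement TGAGTCA is the other common AP-1 site (4.92% of promoters), or for the EGR sites GCGTGGGCG (0.784%) and GCGGGGGCG (5.02%). These are matches of letters in a short window, and nothing was measured at the promoters themselves. Only 1 RefSeq start was searched per gene. The absence of a match, as in EGR2, ATF3 and NR4A1, therefore does not cover other starts of the gene.

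Libraries held between 24153233 and 28406943 estimated counts. LACTB itself was between 70.9 and 97.7 CPM in WT libraries (CPM stands for counts scaled to a common library size by TMM), between 7.49 and 9.79 CPM in the libraries of LACTB KO clones A and C, but 44.6 and 51.5 CPM in those of clone B, whose mean was 60.1% of the WT mean. Clone B thus kept most of its LACTB transcript, and the comparison of genotypes is given without it as well. All 18 microglial markers were detected, with a summed level between 8306 and 10560 CPM, although TMEM119 lay at or below 10.7 CPM in every library. A list of 30 stromal markers, of which 26 passed the filter, summed to 16760 CPM in J1, 12330 CPM in K2 and 2499 CPM in B2 and to between 149 and 1585 CPM in the other libraries. K2 and B2 also had the lowest shares of counts from the mitochondrial genome, 2.68% and 2.5%, against 3.59% to 6.23% in the others. The spread and the correlations below are therefore given with and without these 2 libraries, an alternative chosen after their values were seen. In bulk RNA, fewer expressing cells and less transcript per cell cannot be told apart.

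FOS (ENSG00000170345.10, chr14:75278826-75282230, plus strand, GRCh38) encodes the subunit that pairs with JUN proteins to form AP-1. WT clones J, K and L had 284.7, 301.2 and 142.5 CPM in differentiation 1 and 701.5, 37.6 and 805.2 CPM in differentiation 2. LACTB KO clones A, B and C had 488, 323.5 and 96.5 CPM and then 263.2, 41.7 and 1162 CPM. The lowest library of each genotype was thus the second differentiation of K or B, the highest was that of L or C, and the medians were alike, WT with 293 CPM and LACTB KO with 293.4 CPM. FOSB (ENSG00000125740.14, chr19:45467995-45475179, plus strand), a second FOS protein, was far less abundant and ordered alike. It ranged from 1.37 CPM in K2 to 51.6 CPM in L2 in WT, with a median of 7.15 CPM, and from 0.669 CPM in B2 to 72.7 CPM in C2 in LACTB KO, with a median of 6.55 CPM.

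JUNB (ENSG00000171223.6, chr19:12791486-12793315, plus strand), a JUN protein that also dimerizes with FOS, showed the same order over a narrower range. Its WT level ran from 119.6 CPM in K2 to 605.6 CPM in L2 (median 315.9 CPM), and its LACTB KO level from 126.6 CPM in B2 to 702.2 CPM in C2 (median 362.9 CPM). JUN (ENSG00000177606.8, chr1:58776845-58784048, minus strand), the founding AP-1 subunit, did not. WT clones J, K and L had 93.0, 83.2 and 42.0 CPM of JUN in differentiation 1 and 123.6, 89.0 and 60.2 CPM in differentiation 2. LACTB KO clones A, B and C had 40.3, 70.8 and 50.6 CPM and then 90.8, 81.5 and 94.3 CPM. K2 and B2, the low libraries of the other AP-1 genes, were thus near the middle for JUN, and in every clone the second differentiation had the higher JUN value. ATF3 (ENSG00000162772.17, chr1:212565334-212620777, plus strand), a stress-induced partner of JUN proteins, was low throughout. It ran from 5.31 CPM in L1 to 17.5 CPM in L2 in WT (median 7.28 CPM) and from 3.18 CPM in A2 to 12.3 CPM in A1 in LACTB KO (median 5.57 CPM).

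EGR1 (ENSG00000120738.8, chr5:138465479-138469303, plus strand), a zinc finger factor whose promoter window above holds the CArG boxes, had the largest spread of the 10 on the log scale. WT clones J, K and L had 156.7, 378.6 and 212.1 CPM in differentiation 1 and 453.8, 14.1 and 872.4 CPM in differentiation 2. LACTB KO clones A, B and C had 571.6, 282 and 120.8 CPM and then 385.2, 10.2 and 1040 CPM. K2 and B2 stood apart at the bottom, the next lowest library, C1, being at 120.8 CPM. EGR2 (ENSG00000122877.18, chr10:62811996-62819167, minus strand), its relative, was between 1.15 CPM in L1 and 11.2 CPM in L2 in WT (median 5.76 CPM) and between 0.634 CPM in B2 and 21.9 CPM in C2 in LACTB KO (median 4.39 CPM). NR4A1 (ENSG00000123358.20, chr12:52022832-52059507, plus strand) was between 5.06 CPM in K2 and 48.9 CPM in L2 in WT (median 10.1 CPM) and between 4.83 CPM in B2 and 39.0 CPM in A1 in LACTB KO (median 11.7 CPM). For both genes the range of one genotype lay largely inside that of the other.

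IER2 (ENSG00000160888.7, chr19:13150411-13154911, plus strand), a nuclear protein of the early growth response, ran from 78.4 CPM in K2 to 626.7 CPM in L2 in WT (median 285.5 CPM) and from 80.2 CPM in B2 to 833.7 CPM in C2 in LACTB KO (median 365.9 CPM). DUSP1 (ENSG00000120129.6, chr5:172768096-172771195, minus strand), the phosphatase, had 211, 348.1 and 123.7 CPM in WT clones J, K and L in differentiation 1 and 335.4, 42.9 and 747.5 CPM in differentiation 2. In LACTB KO clones A, B and C it had 568.1, 426.9 and 94.3 CPM and then 259.4, 42.1 and 860 CPM. The feedback phosphatase was therefore low and high in the same libraries as FOS, JUNB and EGR1.

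**Figure D1:**
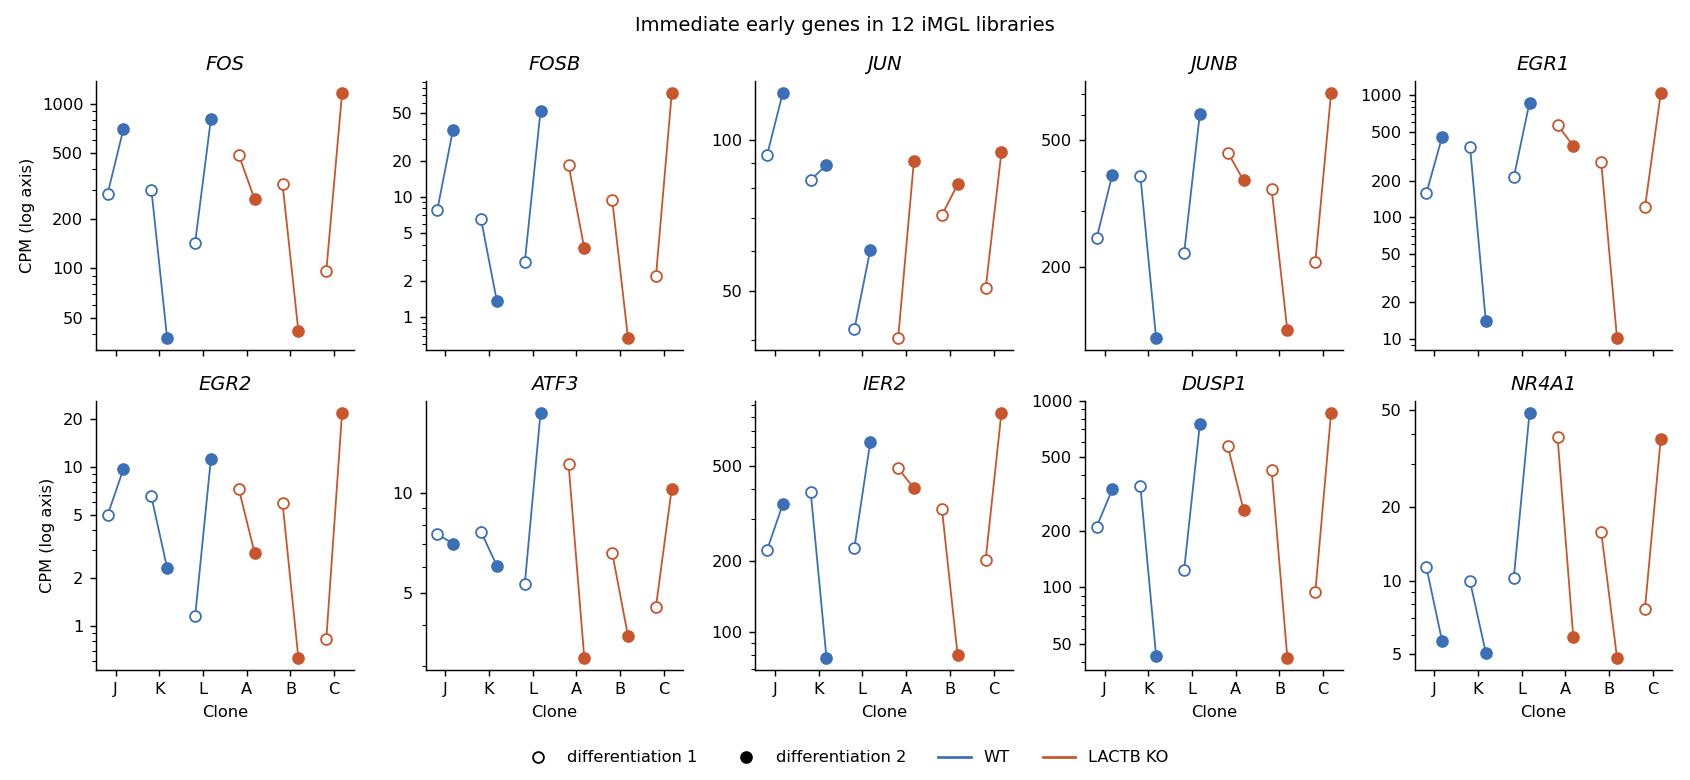
CPM of the 10 genes on log axes in each of 12 libraries, with open circles for differentiation 1 and filled circles for differentiation 2 joined within a clone (WT in blue, LACTB KO in orange). For FOS, FOSB, JUNB, EGR1, IER2 and DUSP1, K2 and B2 are the lowest libraries and L2 and C2 the highest, whereas JUN is higher in differentiation 2 in 6 of 6 clones.

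The spread over the 12 libraries was widest for FOSB and EGR1 and narrowest for JUN. Between the lowest and the highest library the level differed 108.6-fold for FOSB, 101.8-fold for EGR1, 34.5-fold for EGR2, 30.9-fold for FOS, 20.4-fold for DUSP1, 10.6-fold for IER2, 10.1-fold for NR4A1, 5.87-fold for JUNB, 5.49-fold for ATF3 and 3.06-fold for JUN. Without K2 and B2 the range was 33.1-fold for FOSB, 26.4-fold for EGR2, 12.04-fold for FOS, 9.12-fold for DUSP1, 8.63-fold for NR4A1, 8.61-fold for EGR1, 4.14-fold for IER2 and 3.39-fold for JUNB, with ATF3 and JUN as before. The range of EGR1 thus rested largely on these 2 libraries, whereas FOSB and EGR2 had the widest ranges without them. The lowest values rest on few reads for 2 of the genes, 19 counts for FOSB and 18 counts for EGR2, both in B2, but on 290 counts for EGR1 and 1070 for FOS. By the SD of log2 CPM, EGR1 was the 170th and FOSB the 187th most variable of 16681 genes (SD 2.12 and 2.09), FOS the 420th, EGR2 the 452nd and DUSP1 the 505th, while JUN was the 4129th (SD 0.50). Without K2 and B2, FOSB was the 251st (SD 1.76), EGR2 the 506th, FOS the 907th, DUSP1 the 1040th, EGR1 the 1125th (SD 1.01) and JUN the 3755th (SD 0.54). The median SD of all genes was 0.25. Divided by the summed exon length of the gene, the median over libraries was highest for JUNB (198.3 CPM per kb), followed by DUSP1 (147.8), IER2 (109.4), EGR1 (105.3), FOS (92.0) and JUN (22.7), and it lay between 1.29 and 1.71 CPM per kb for ATF3, EGR2, NR4A1 and FOSB. The ranges of neighbours in this order overlapped, except those of JUN and ATF3.

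LACTB KO clones were compared with WT clones to ask whether loss of LACTB altered the resting level of these genes. No difference was detected for any of them. By edgeR's quasi-likelihood test on counts summed per clone (3 clones against 3, Benjamini-Hochberg over 17577 genes), 0 of the 10 had an adjusted p under 0.05, where 0% of all genes were called, and 0 of 10 had an unadjusted p under 0.05, against 6.36% of all genes (1118). DESeq2 on the same sums called 171 genes, none of the 10 among them. The log2 fold change was above 0 for 8 and below 0 for 2, with a median of 0.15 against 0.01 for all genes tested. It was 0.32 for DUSP1 (standard error 0.34, adjusted p = 0.892), 0.31 for IER2 (0.36, 0.895), 0.29 for NR4A1 (0.56, 0.927), 0.21 for EGR1 (0.54, 0.945), 0.18 for JUNB (0.27, 0.914), 0.13 for EGR2 (0.45, 0.959), 0.06 for FOS (0.53, 0.982) and 0.01 for FOSB (0.87, 0.998). JUN was lower at -0.19 (0.25, 0.908) and ATF3 at -0.34 (0.24, 0.878). Clone sums follow the library with more counts of a gene, whereas mean log2 CPM weighs both libraries of a clone alike. By that mean FOS, FOSB and EGR2 were lower in LACTB KO (7.91, 2.72 and 1.805) than in WT (7.98, 3.11 and 2.23). Exact two-sided permutation tests of the mean log2 CPM of each clone gave p between 0.2 for ATF3 and 1 for EGR1, in a design whose smallest p is 0.1.

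The standard errors show how little these clones could resolve. For EGR1, FOS, FOSB and NR4A1 they exceeded 0.5 on the log2 scale, and the absence of a call does not show equal levels. LACTB itself was not called by edgeR on clone sums, although clones A and C had 12.1% and 9.66% of its WT mean. Within differentiation 1, which holds neither K2 nor B2, 9 of the 10 genes were above 0, with DUSP1 at 0.66 (standard error 0.62) and NR4A1 at 0.98 (0.51, adjusted p = 0.983). Within differentiation 2 the values were 0.04 for DUSP1 (1.22) and -0.28 for NR4A1 (1.17). None of the 10 passed in either differentiation alone, and NR4A1, FOS, FOSB and ATF3 were above 0 in differentiation 1 and below 0 in differentiation 2. Values also depended on single clones. Without clone L, JUN was at -0.44 (unadjusted p = 0.00918, adjusted p = 0.246) and NR4A1 at 1.19 (0.0148, 0.297), and without clone B, which kept most of its LACTB transcript, IER2 was at 0.62 (0.0477, 0.966). Without clone B the 8 genes above 0 lay between 0.41 for FOS and 0.62 for IER2, EGR1 being at 0.61 and DUSP1 at 0.57, and none of the 10 passed (adjusted p of at least 0.966 by edgeR).

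**Figure D2:**
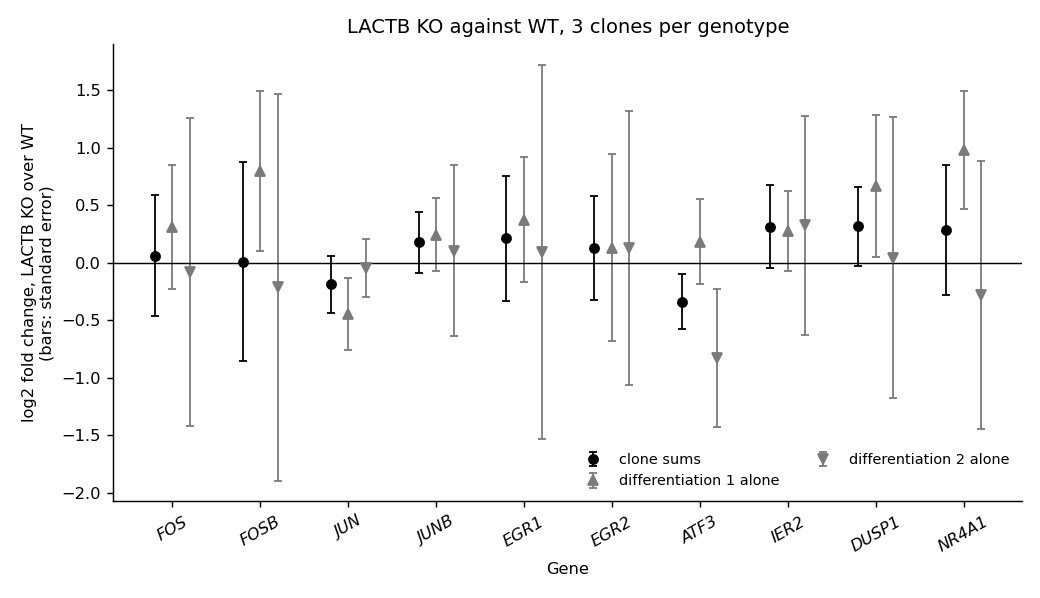
log2 fold change of LACTB KO over WT for the 10 genes (points) with its standard error (bars), from counts summed per clone and from each differentiation alone, 3 clones per genotype. The values from clone sums lie between -0.34 for ATF3 and 0.32 for DUSP1, and the bars of differentiation 2 are the widest for 9 of the 10 genes, all but JUN.

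Differentiation 2 was compared with differentiation 1 within clones. Of the 10 genes, 5 were higher and 5 lower in differentiation 2, 0 had an adjusted p under 0.05 (0% of 16681 genes were called), and 1, JUN, had an unadjusted p under 0.05, against 9.3% of all genes (1552). JUN was higher by 0.55 on the log2 scale (standard error 0.14, unadjusted p = 0.00465, adjusted p = 0.321 by edgeR), and higher in 6 of 6 clones, by between 0.10 in K and 1.17 in A. DESeq2, which called 295 genes, called JUN too (log2 fold change 0.55, adjusted p = 0.00831), and over the alternatives the adjusted p of JUN lay between 0.00831 and 0.98. For the other 9 the standard errors were between 0.46 for ATF3 and 1.61 for FOSB, as clones went in opposite directions. EGR1, for example, was at -0.15 with a standard error of 1.40 (adjusted p = 0.988).

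The direction differed between clones. Each clone gave 1 difference between 2 libraries, so a trait of the clone and the state of 1 library cannot be told apart. Between differentiation 1 and 2, all 10 genes were higher in L (median change 2.14 in log2 CPM) and in C (2.71), and 8 of 10 in J (0.67). In K (-1.94), B (-2.5) and A (-1.01), 9 of 10 were lower, the exception in each being JUN. EGR1 changed by -4.74 in K and -4.78 in B, by 2.04 in L and 3.11 in C, and by 1.53 in J and -0.57 in A. FOSB changed by 5.00 in C, the widest change of any of the 10 genes in any clone. Changes past 1 in log2 CPM in either direction were made by 9 of 10 genes in L and in C, 8 in B, 7 in K, 6 in A and 3 in J, against between 6.29% and 13.7% of all genes, depending on the clone.

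**Figure D3:**
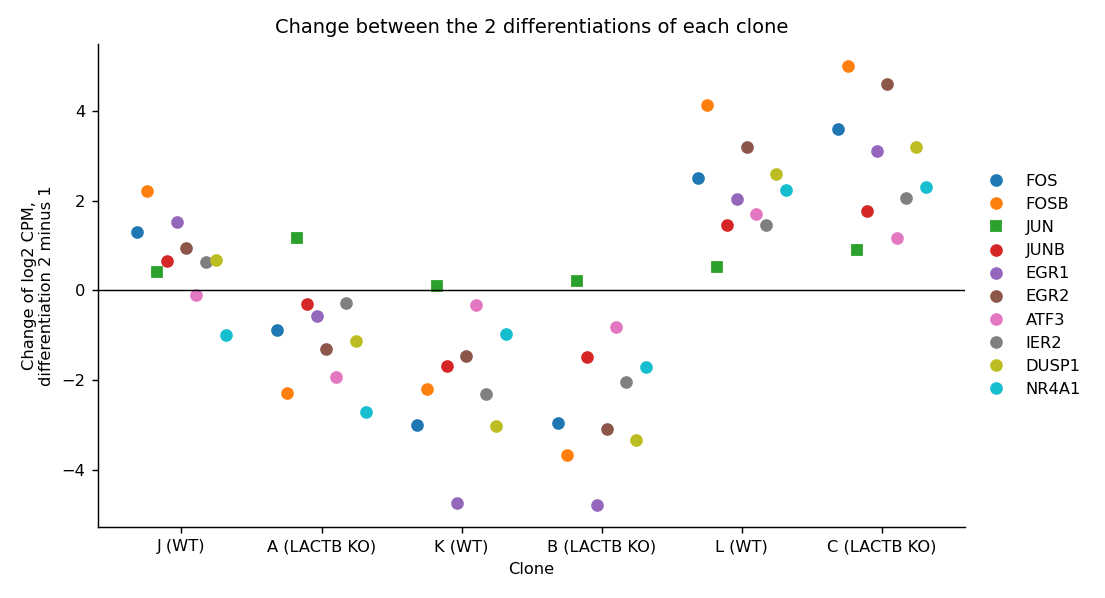
Change of log2 CPM between differentiation 1 and differentiation 2 in each clone, with 1 point per gene and JUN as squares. Clones K and B lie below 0 and clones L and C above 0 for all genes but JUN, which is above 0 in every clone.

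With clones K and B left out, EGR1 was at 1.57 in differentiation 2 in place of -0.15, and with L and C left out it was at -2.22. These clones were left out after their directions were seen, so the direction of the rest was largely fixed by that choice, and the values are descriptions with no test. JUN, whose direction played no part in it, was at 0.74 and at 0.47. The interaction of genotype and differentiation asked whether the change differed between genotypes. It had an adjusted p of 1.00 for all 10 genes, 0 of which had an unadjusted p under 0.05 (0.917% of all genes did, 153, and 0% were called, with 0 calls by DESeq2 as well). The F test between the 6 clones, with the differentiation as block, called 9 of 16681 genes (0.054%), none of the 10 among them, and 1 of the 10, JUN, had an unadjusted p under 0.05 (unadjusted p = 0.0232, adjusted p = 0.401 by edgeR), against 9.7% of all genes. By DESeq2's likelihood ratio test, which called 1049 of 16681 genes, JUN passed (adjusted p = 0.00379).

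Some libraries of different genotypes were closer in these genes than the 2 libraries of one clone. By the median absolute difference in log2 CPM over the 10 genes, K2 and B2 were nearest to each other (0.14), as were K1 and B1 (0.23), L1 and C1 (0.38) and L2 and C2 (0.45). J1 and K1, both WT, were 0.32 apart, closer than L1 and C1, J2 and A2 were 0.41 apart, and J1 and A1 were 1.17 apart. The 2 libraries of a clone, by contrast, were 1.94 apart in K, 2.5 in B, 2.14 in L and 2.71 in C, and 0.81 in J and 1.15 in A. Within differentiation 2, the widest distance of all was between LACTB KO clones B and C (3.86). Single genes could differ more than the median. The largest difference of any gene was 1.76 for K2 and B2 and 0.67 for K1 and B1. It was 0.81 for L1 and C1, 0.96 for L2 and C2, 1.27 for J1 and K1 and 3.25 for J2 and A2. The labels name no link between clones of different genotypes, and a shared day of plating or collection was not tested. These distances are descriptions, since the clones that lie together were seen in these same libraries.

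Among themselves, 9 of the 10 genes were ordered alike over the libraries. Pearson's r of log2 CPM with the mean of the other 9 was 0.978 for DUSP1 and FOS, 0.972 for JUNB, 0.958 for FOSB, 0.946 for IER2, 0.902 for EGR1, 0.897 for EGR2, 0.755 for NR4A1 and 0.739 for ATF3, but 0.002 for JUN (n = 12 libraries, which share clones and differentiations). The 36 pairs without JUN had r between 0.580 and 0.990 (median 0.860, the highest for JUNB with IER2). The 9 pairs with JUN had r between -0.400, with NR4A1, and 0.316. Without K2 and B2 the same 36 pairs had r between 0.580 and 0.987 (median 0.856), the r of EGR1 with the mean of the other 9 was 0.908 and that of FOS 0.969, while that of JUN was 0.238 and its pairs reached 0.501. JUN thus stood apart from the other 9, and its promoter window holds the core TGACG as do those of FOS, FOSB, JUNB, EGR1, IER2 and DUSP1.

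The genes outside the set with the most similar pattern (r of log2 CPM with the centred mean of the 10, over 12 libraries) were EGR3 (0.972), SGK1 (0.964), RGS1 (0.962), DUSP2 (0.961), SPRY2 (0.961), PPP1R15A (0.951), the unnamed ENSG00000289298 (0.950), ZFP36 (0.945), EDN1 (0.944) and PMAIP1 (0.937). EGR3, a further EGR factor, was at 4.63 CPM in K2 and 4.90 CPM in B2 and at 167.7 CPM in L2 and 179 CPM in C2. RGS1, a regulator of G protein signalling, was at 27.9 CPM in K2 and 25.6 CPM in B2 and at 459.5 CPM in L2 and 372.5 CPM in C2. Without K2 and B2 the r of these 10 genes lay between 0.910 for ZFP36 and 0.985 for PMAIP1. SGK1, a serum- and glucocorticoid-induced kinase, spanned only 90.5 to 277.4 CPM, so a close order did not require a wide range.

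**Figure D4:**
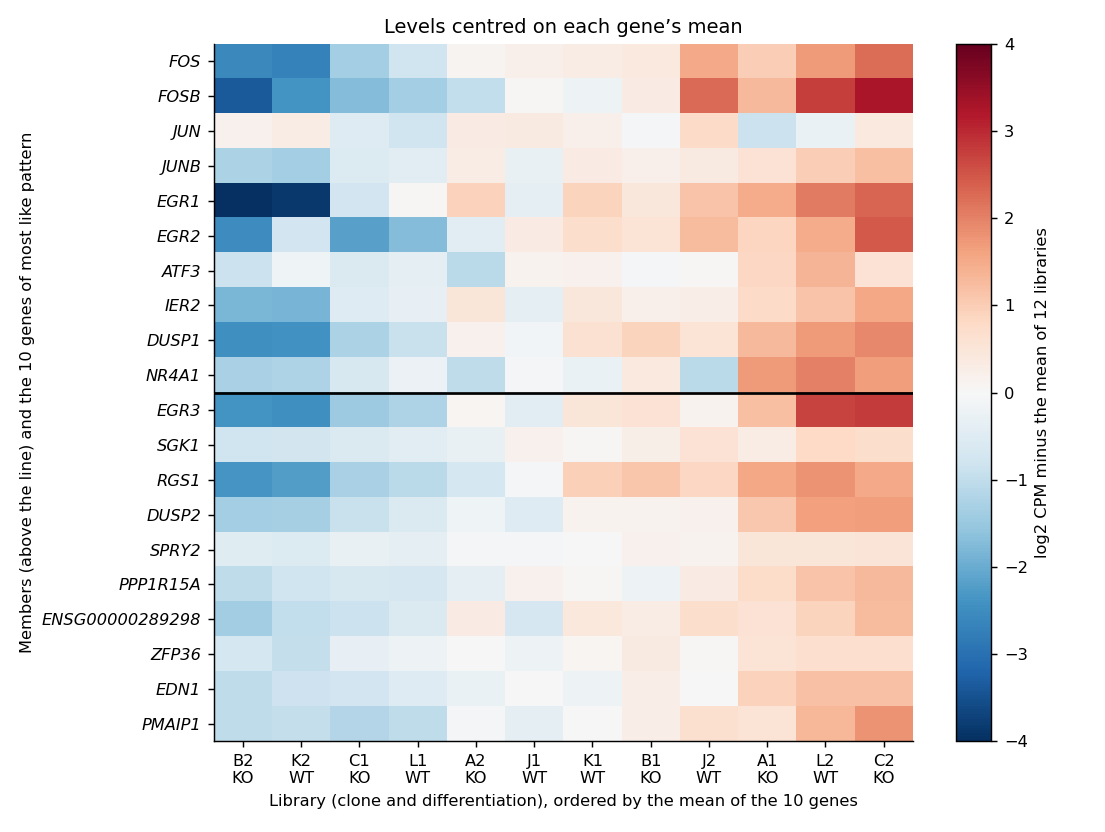
log2 CPM minus the mean of each gene over 12 libraries, for the 10 genes (above the line) and the 10 genes of most similar pattern (below it), with libraries ordered by the mean of the 10 genes. B2 and K2 are at the low end and L2 and C2 at the high end, and JUN is the row without that gradient.

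Lists of related genes, written with earlier results of these data known, were set beside this pattern, with r above 0.8 found for 64 of 16671 genes (0.384%). It was found for 9 of 32 other immediate early and early response genes, among them ZFP36, which promotes decay of cytokine mRNA, PTGS2, the inducible cyclooxygenase (11.2 to 310.3 CPM), RGS2 and KLF6. It was found for EGR3 and NR4A2 of 5 further EGR and NR4A genes, for DUSP2, SPRY1 and SPRY2 of 15 MAPK phosphatases and feedback inhibitors, and for CXCL8 (25.0 to 235.9 CPM), CCL3 and CCL4 of 12 inflammatory genes. It was found for 0 of 14 other AP-1 subunits and partners (highest JUND, 0.597), 0 of 29 upstream kinases and transcription factors (highest RPS6KA4, 0.590), 0 of 15 heat shock genes (highest HSPD1, 0.628), 0 of 18 microglial markers (highest AIF1, 0.446) and 0 of 26 stromal markers, whose median r was -0.533. Without K2 and B2 it was found for 104 genes (0.624%), among them 10 of 32 other immediate early genes, 1 of 5 EGR and NR4A genes, 3 of 15 phosphatases and feedback inhibitors, 5 of 12 inflammatory genes, 2 of 15 heat shock genes (HSP90AA1 and HSPA8), 1 of 14 AP-1 genes (MAFF), 1 of 18 microglial markers (AIF1) and 0 of the 29 upstream genes listed. The 12 inflammatory genes had been listed as induced together with immediate early genes in handled microglia. Their share is thus not independent of that choice, and it does not speak for inflammatory genes at large.

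Between genotypes, none of the genes of these lists had an adjusted p under 0.05 by edgeR. Of all genes tested, 9090 of 17577 were higher in LACTB KO. An unadjusted p under 0.05 was found for 6.36%, 977 of these 1118 lower in LACTB KO, and the counts below are to be read against both. Of 32 other immediate early genes, 18 were higher and 14 lower in LACTB KO (median 0.03), and the 3 with an unadjusted p under 0.05 were all lower, CCN2 at -2.52 and CCN1 at -2.54, matricellular proteins that stromal cells express strongly, and KLF2 at -1.06. CCN2 was highest in K2 and J1, the libraries with the most stromal transcripts (164.4 and 103.9 CPM), as was CCN1 (61.4 and 33.6 CPM). Of 29 upstream kinases and factors 26 were higher (median 0.10), ELK3 at 0.32 and ELK1 at 0.18 having the smallest p (0.0158 and 0.0305, adjusted p = 0.726 and 0.746). Their summed level was lowest in WT clone J, 2418 CPM in J1 and 2402 CPM in J2. It was between 2757 and 2918 CPM in the other WT libraries and between 2809 and 3030 CPM in LACTB KO. Of 15 MAPK phosphatases and feedback inhibitors, 9 were higher and 6 lower, with DUSP8 at -1.47 (0.00721, adjusted p = 0.726), which was highest in J1 and K2 too (1.62 and 1.16 CPM). Of 14 other AP-1 genes 4 were higher and 10 lower, with MAFF at -0.32 (adjusted p = 0.793), of 5 further EGR and NR4A genes all 5 were higher, with a median of 0.13, and of 12 inflammatory genes 2 were higher, TNF among them at 0.54 (adjusted p = 0.878). Heat shock genes, 11 of 16 higher, had SERPINH1 at -0.55 and HSPB1 at -0.69 as the 2 with an unadjusted p under 0.05. In J1 and K2, SERPINH1 stood at 126.2 and 118 CPM, against at most 67.7 CPM elsewhere, and HSPB1 at 41.9 and 38.7 CPM, against at most 31.7 CPM. The part of stromal transcripts in these values was not tested. The 26 stromal markers were all lower in LACTB KO (median -2.73, 21 with an unadjusted p under 0.05, smallest adjusted p = 0.726).

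Between differentiations, none of these genes had an adjusted p under 0.05 either. Of all genes tested, 8159 of 16681 were higher in differentiation 2. Of 12 inflammatory genes 11 were higher in differentiation 2 (median 0.25), with the chemokine CCL2 at 0.97 (unadjusted p = 0.000293, adjusted p = 0.136 by edgeR), and of 15 heat shock genes 14 were higher (median 0.15), with HSPA1A at 0.47 (adjusted p = 0.593). Among AP-1 genes, FOSL1 was at 0.57 and BATF3 at -0.55 (adjusted p = 0.428 and 0.433). NAB2, a corepressor of EGR factors, was at -0.20 (adjusted p = 0.486), the early response genes PHLDA1 and PLK2 were at -0.35 and 0.58, and MAPK3, which encodes the kinase ERK1, was at 0.17 (adjusted p = 0.375). These lists give no direction common to the early response genes between the differentiations.

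The stromal level moved together with the low libraries but not in all libraries. From differentiation 1 to 2, the mean log2 CPM of the stromal list changed by 6.22 in K and 2.90 in B, where 9 of the 10 genes were lower, and by -2.73 in L, -2.67 in J, -1.59 in A and -0.40 in C. J1, with the most stromal transcripts (16760 CPM), had a mean of the 10 genes of -0.02 in centred log2 CPM, against -1.65 in K2 and -2.03 in B2. Over 6 clones the change of EGR1 was related to that of the stromal list with Pearson's r of -0.847 (exact permutation p = 0.0417, adjusted p = 0.389 over 20 relations) and Spearman's rho of -0.6 (exact permutation p = 0.242, adjusted p = 0.604). Without K and B, the clones farthest from the median of the stromal list, r was 0.252, so that the relation rests on them. JUN gave r = -0.608 (exact permutation p = 0.181, adjusted p = 0.431), rho = -0.543 (exact permutation p = 0.297, adjusted p = 0.661) and 0.699 without K and B. None of the 20 relations, 10 with the stromal and 10 with the heat shock list, passed after adjustment.

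**Figure D5:**
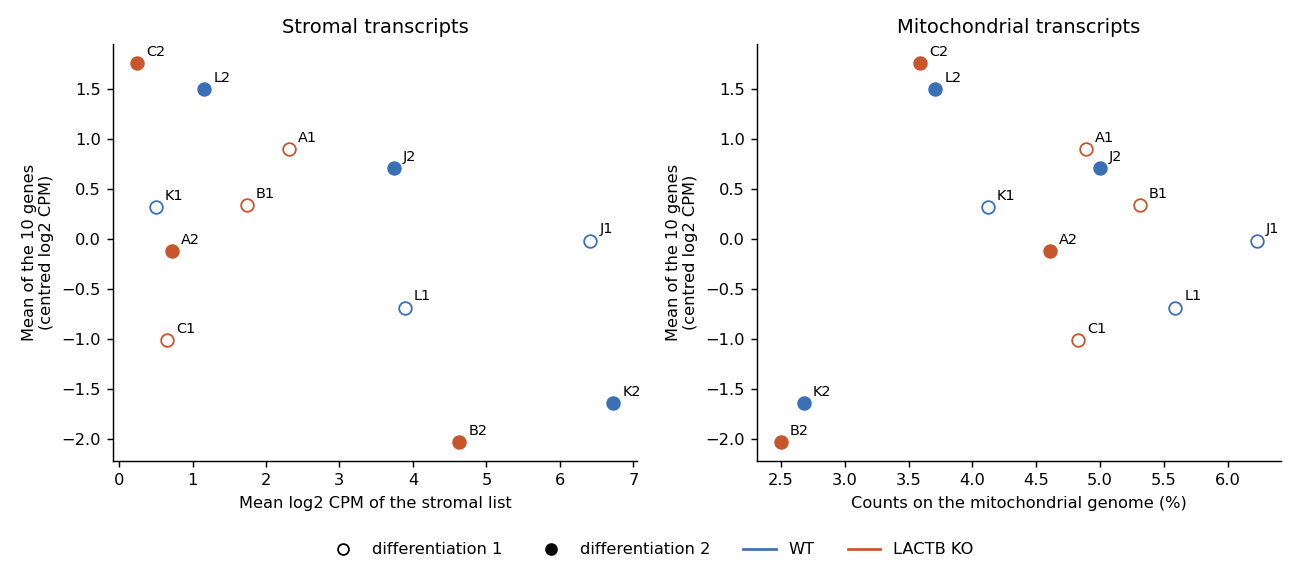
Mean of the 10 genes in centred log2 CPM for each of 12 libraries against the mean log2 CPM of the stromal list (left) and against the share of counts from the mitochondrial genome in percent (right), WT in blue, LACTB KO in orange, open circles for differentiation 1. K2 and B2 are lowest on the vertical axis and have the lowest mitochondrial shares, 2.68% and 2.5%, while J1 is high in stromal transcripts and near the middle in the 10 genes.

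The mitochondrial share did not separate the high libraries from the rest. C2 and L2, highest in the 10 genes, had 3.59% and 3.71%, the next shares above K2 and B2, and J1 had the highest share, 6.23%. The summed heat shock level was highest in A1 (6193 CPM), L2 (5462), C2 (4897) and J2 (4695), the 4 libraries that were also highest in the mean of the 10 genes, and lowest in C1 (3608) and L1 (3800), which came next above B2 and K2 in that mean. In K2 and B2 the sum was 4482 and 4352 CPM. A sum follows the most abundant genes, and the mean log2 CPM of the list gave another order. By that mean A1 (6.98) and L2 (6.78) were highest, but J1 (6.72) and K2 (6.68) came next and K1 (6.19) was lowest. Over 6 clones the change of this mean had Pearson's r between -0.683, with JUN, and 0.613, with ATF3. The median r of the 15 heat shock genes with the mean of the 10 was 0.476, and 0.587 without K2 and B2. The stromal level was also added as a covariate beside the differentiation, in a fit to 12 libraries without a clone term. There the genotype value of EGR1 was -1.14 (standard error 0.99), against 0.24 in that fit without the covariate and 0.21 from clone sums. In all, 8 of the 10 genes turned from above to below 0, none with an unadjusted p under 0.05. The stromal level differed with genotype itself, all 26 markers being lower in LACTB KO, so the 2 terms overlap. The part of stromal cells, mitochondrial share, heat shock, RNA quality and handling in the level of the 10 genes was not tested.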

How the data were processed

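Bulk RNA-seq of iMGLs was measured in 12 libraries. Per the labels and the study's methods, the authors made TruSeq libraries for paired-end sequencing, trimmed adapters with Cutadapt and mapped the reads to hg38 with STAR. The deposited values are estimated counts for each gene, unscaled. The counting tool, its annotation and its strand setting are not given in the sources used here. Of the gene values in each library, 10.8% to 11.5% were not whole numbers, so every library was rounded before the 2 differentiations of a clone were added up for the comparison of genotypes.

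Genes were tested with edgeR 4.0.16 in R 4.3.3 (TMM, filterByExpr, quasi-likelihood test, Benjamini-Hochberg over all genes tested, threshold 0.05). The comparisons of differentiations and the interaction used 12 libraries with clone as a fixed effect, and the clones were compared by an F test with the differentiation, which the labels give as batch, as block. The study's linear mixed model was not run, and limma 3.58.1 voom with clone as random effect stands nearest to it. Alternatives were RLE scaling, no filter, DESeq2 1.42.0, blocks, a stromal covariate, each differentiation or genotype alone and each clone left out. Levels are CPM, and log2 CPM has a prior count of 2. All clones are of 1 cell line. In the comparison of genotypes by clone, p-values measure the spread between these clones. Tests of differentiation and of the interaction rest on how the change within a clone varies between clones. The F test between clones rests on the spread left between the 2 libraries of a clone. Fits to 12 libraries without a clone term take libraries as replicates. The steps were tested on simulated counts. Gene coordinates and exon lengths came from GENCODE on GRCh38, promoters from RefSeq with 1 start per gene, in which all 10 genes were found.

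The 10 genes and the lists were chosen with earlier results of these data known. The genes named are the 10 in every comparison, the up to 3 genes of each list with the smallest p between genotypes and between differentiations, and the 10 genes of most similar pattern. Others were named after their values were seen. Of the lists not described in the report, 2 of 9 mast cell and basophil, 2 of 13 erythroid and megakaryocyte, 3 of 8 endothelial and 1 of 7 pluripotent markers passed the filter in 12 libraries, with at most 122.6, 11.8, 3.5 and 14.9 CPM summed, and none had an adjusted p under 0.05 in the comparisons of genotypes and differentiations.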

Additional observations from a re-analysis of the deposited data

Results flagged for a closer look

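In WT iMGLs, L2 stood apart from the other 5 libraries in ATF3 and in NR4A1. On the log2 CPM scale, its gap to the next library was 0.695 of the range of the 6 WT libraries for ATF3 and 0.644 for NR4A1. Both are past Dixon's limit of 0.625 for 6 independent samples, whereas these libraries are 2 from each of 3 clones. In ATF3, L2 had 17.5 CPM, with the others between 5.31 and 7.64 CPM. In NR4A1 it had 48.9 CPM, with the others between 5.06 and 11.4 CPM. Among independent samples such a gap is found by chance in about 1 in 20 groups, and 20 groups were looked at. On the log2 CPM scale, no LACTB KO group of libraries had such a gap in any of the 10 genes.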

How the results depend on the processing

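Against 0 genes past the threshold between genotypes by edgeR on clone sums, DESeq2 gave 171, no expression filter 2, and leaving out each clone in turn 0 to 1 (1 without clone B and 1 without clone L). Between differentiations, against 0, DESeq2 gave 295, no filter 80, LACTB KO clones alone 10, no clone block 2, and each clone left out 0 to 44 (44 without clone J). Between clones, against 9, DESeq2 gave 1049, no filter 451, the stromal covariate 23, LACTB KO clones alone 2, WT clones alone 0, and each clone left out 2 to 7 (2 without A, C or L). The interaction had 0 under all 9 alternatives. The 10 genes kept their side of the threshold, except JUN, which DESeq2 called between differentiations and between clones. The causes of these differences were not tested.

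None of the following log2 fold changes passed the threshold under the main setting or the alternative, and all are on the other side of 0 from the main value. For LACTB KO against WT, the stromal covariate was fitted to 12 libraries without a clone term. It gave FOS -0.79, FOSB -0.81, JUNB -0.37, EGR1 -1.14, EGR2 -0.56, IER2 -0.44, DUSP1 -0.54 and NR4A1 -0.26. limma voom with the replicate block and clone as random effect gave FOS -0.070, FOSB -0.53 and EGR2 -0.51. Differentiation 1 alone gave ATF3 0.18, and differentiation 2 alone gave FOS -0.079, FOSB -0.21 and NR4A1 -0.28. Clone sums hold 1 library of each differentiation, but for a gene that differs between the 2 they follow the library with more counts. A fit to 12 libraries with the differentiation number as replicate block, which the labels give as the batch, gave 0 genes past the threshold, EGR1 at 0.24 and changed neither the direction nor the call of any of the 10 genes. With pairs of clones as block (A with J, B with K, C with L), a pairing taken from earlier results of these data and not from the labels, 0 genes passed, the values on the other side of 0 were FOS -0.059, FOSB -0.23 and EGR2 -0.37, and the standard errors of all 10 genes were smaller than with the differentiation block, by between 1.07 and 3.30 times. This pairing was seen in the same libraries, so its smaller errors are not independent evidence. Leaving out each clone gave -0.44 to 0.41 for FOS, -1.15 to 0.46 for FOSB, -0.44 to 0.063 for JUN, -0.15 to 0.67 for EGR1, -0.53 to 0.46 for EGR2 and -0.036 to 1.19 for NR4A1.

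For differentiation 2 against 1, WT clones alone gave EGR1 0.29, ATF3 0.40, IER2 0.018, DUSP1 0.24 and NR4A1 0.0084, and LACTB KO clones alone gave FOS -0.37, FOSB -0.94, JUNB -0.016 and EGR2 -0.39. No clone block gave EGR1 0.70, ATF3 0.070, IER2 0.35, DUSP1 0.41 and NR4A1 0.28. The stromal covariate gave ATF3 0.012 and IER2 0.012. Of 2 alternatives chosen after seeing the data, leaving out K and B gave EGR1 1.57, ATF3 0.27, IER2 0.97, DUSP1 1.38 and NR4A1 0.31, and leaving out L and C gave FOS -1.47, FOSB -1.72, JUNB -0.70 and EGR2 -1.25. Leaving out each clone gave -0.66 to 0.87 for FOS, -0.62 to 1.59 for FOSB, -0.27 to 0.47 for JUNB, -1.08 to 0.74 for EGR1, -0.46 to 1.09 for EGR2, -0.39 to 0.33 for ATF3, -0.49 to 0.44 for IER2, -0.94 to 0.54 for DUSP1 and -0.95 to 0.15 for NR4A1. For the interaction, leaving out each clone gave -2.48 to 0.80 for FOS, -1.09 to 0.54 for JUNB, -2.95 to 0.97 for EGR1, -3.13 to 0.71 for EGR2, -1.19 to 0.86 for IER2, -2.50 to 0.77 for DUSP1 and -2.25 to 0.31 for NR4A1. TMM against RLE scaling, the expression filter and DESeq2 turned no direction among the 10 genes. Depth limits the lowest levels of EGR2 and FOSB, which rest on 18 and 19 counts.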
